A study of Mus musculus with 8 samples.

Results

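Pan-phagocyte and myeloid genes are the genes that macrophages, microglia and other phagocytes of the myeloid lineage share: receptors that sense growth factors, antibodies and microbial products, enzymes of the lysosome, adhesion and signalling proteins, and the transcription factors that set this identity. A list of 43 such genes was compared among the 4 groups of retinas. A gene was taken from the array's probe sets whose annotation gives exactly 1 gene symbol, and 42 of the 43 genes were measured in this way, each by 1 probe set. The exception, *Slc11a1*, a metal transporter of the phagosome, is not analysed here. These 42 genes stand among 19938 genes with such a probe set and 28853 probe sets in all. They are grouped below by role: 5 genes of the lysosome and of microbe killing, 8 receptors for microbial products and debris, 5 Fc receptors and *Cd33*, 4 genes for a growth factor receptor and adhesion, 5 surface proteins of costimulation and small membrane proteins, 6 signalling proteins of blood cells, 3 actin regulators, 2 subunits of the phagocyte oxidase, 3 transcription factors and 1 enzyme of prostaglandin synthesis.

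All groups were C57BL/6J mice, a pigmented laboratory strain, raised and kept in dim cyclic light of 5 lux. The hyperoxia inferior and hyperoxia superior samples came from mice that breathed 75% oxygen for 14 days from an age of 83 to 90 days, and the control inferior and control superior samples came from mice of the same age in room air. Each of the 8 samples was RNA pooled from 2 animals, 1 of each sex, on 1 Affymetrix Mouse Gene 1.0 ST array, with 2 arrays in each group. The replicates were run as separate experiments, but the sources do not say whether superior and inferior samples with the same number share animals. All values are log2 expression as deposited, so that a difference of 1 is a 2-fold difference. The median over all probe sets lay between 6.98 and 7.05 on the 8 arrays. A probe set's level cannot be set against that of another gene's, and 20 of the 42 genes had a mean under 6 and are called dim below. Lens transcripts stood apart on 1 array: over 15 lens genes, control inferior replicate 2 lay a median of 3.29 above each gene's mean, against -0.80 on control inferior replicate 1.

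Microglia are the resident phagocytes of the retina. In the healthy retina they live mainly in the plexiform layers, where they depend on signalling through the CSF1 receptor. When photoreceptors die, microglia, and in some models monocytes from blood, enter the outer retina, round up and engulf debris, and lysosomal and Fc receptor genes are among those that active phagocytes express strongly. In whole retina these genes are markers of cells that make up a small part of the tissue, and more cells of a type cannot be told apart from more RNA per cell.

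Pan-phagocyte and myeloid genes were higher in the inferior retina after hyperoxia. Of the 42 genes, 16 rose at a limma adjusted p under 0.05 and 0 fell, which is 38.1% of them beside 0.430% of all probe sets called higher and 0.0624% called lower. The median change was 0.56 (range -0.37 to 1.98), beside 0.01 over all probe sets, and 40 of the 42 changes were above 0, beside 51.6% of all probe sets. At an unadjusted p under 0.05, 32 genes were higher, beside 4.96% of all probe sets, and 1 was lower, beside 4.43%. Both hyperoxia inferior arrays lay above both control inferior arrays for 35 genes, beside 20.5% of all probe sets. The 16 genes include 11 that the study itself listed as regulated differently by region on these same arrays, so they are not independent evidence of the direction. Of the other 31 genes, 5 rose (*Itgam*, *Itgb2*, *Cd52*, *Aif1* and *Inpp5d*), which is 16.1%, with a median of 0.47 and 29 of 31 changes above 0.

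Individual arrays bore on these counts. The number of genes called in the inferior retina was 7 when replicate 1 of the hyperoxia inferior retinas was left out, 8 when replicate 2 was, and 10 without either control superior array. It was 11 without either control inferior array, so that it stood at 11 of 42 when the array rich in lens transcripts was left out. Across the 8 omissions the same 7 genes passed every time: *Ly86*, *Mpeg1*, *Cd68*, *Laptm5*, *Ctss*, *Fcer1g* and *Csf1r*, with adjusted p-values no higher than 0.0467.

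**Figure D1:**
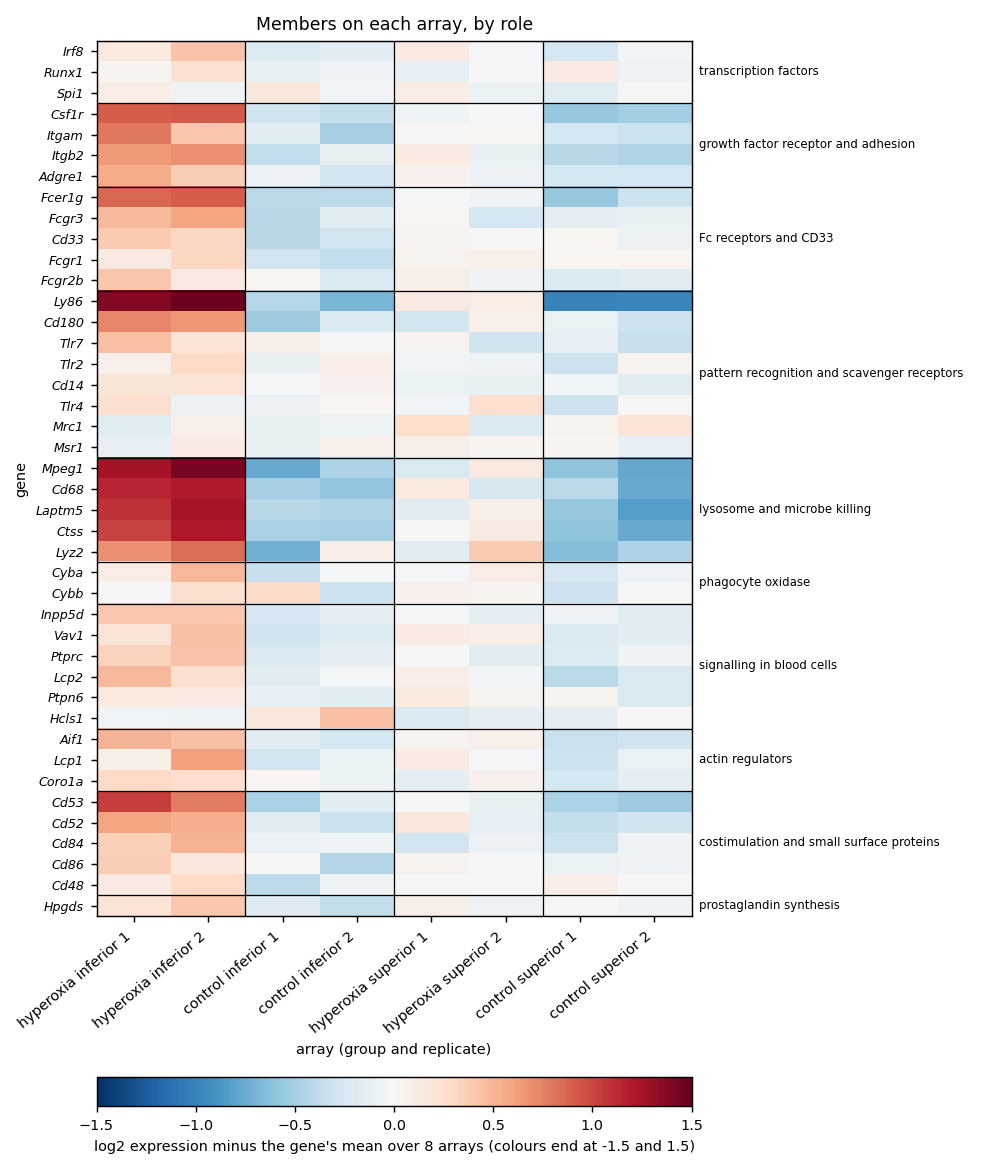
Log2 expression of the 42 genes (rows, ordered by role) on the 8 arrays (columns, 2 for each group), minus each gene's mean over the 8 arrays. The highest of the 8 values lies on hyperoxia inferior replicate 1 for 12 of the 42 genes and on replicate 2 for 24.

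Genes of the lysosome and of microbe killing had the largest median change of the role groups, 1.60 in the inferior retina, where 4 of the 5 rose. *Mpeg1*, which encodes the pore-forming protein perforin-2 of macrophages, measured 7.97 and 8.14 in hyperoxia inferior retinas, 5.97 and 6.26 in control inferior retinas, 6.49 and 6.87 in hyperoxia superior retinas and 6.12 and 5.95 in control superior retinas. Its hyperoxia inferior arrays stood alone at the top, and its hyperoxia superior arrays lay above all 4 control arrays. It rose 3.83-fold in the inferior retina (log2 change 1.94 ± 0.15, SE; limma adjusted p = 0.00114). *Cd68*, a heavily glycosylated protein of lysosomal membranes and a standard marker of phagocytes, measured 8.28 and 8.33 in hyperoxia inferior retinas, 6.65 and 6.54 in control inferior retinas, 7.29 and 6.90 in hyperoxia superior retinas and 6.74 and 6.39 in control superior retinas. The groups kept the same order, and *Cd68* rose 3.27-fold in the inferior retina (1.71 ± 0.15; adjusted p = 0.00216).

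*Laptm5*, a transmembrane protein of lysosomes in blood cells, measured 8.56 and 8.71 in hyperoxia inferior retinas, 7.05 and 7.02 in control inferior retinas, 7.31 and 7.56 in hyperoxia superior retinas and 6.90 and 6.65 in control superior retinas. *Ctss*, the protease cathepsin S of antigen-presenting cells, measured 10.72 and 10.90 in hyperoxia inferior retinas, 9.22 and 9.20 in control inferior retinas, 9.70 and 9.83 in hyperoxia superior retinas and 9.09 and 8.94 in control superior retinas. Neither gene had any overlap between exposed and control arrays in either region. Both rose in the inferior retina, *Laptm5* by 1.60 ± 0.12 (adjusted p = 0.00114) and *Ctss* by 1.60 ± 0.10 (adjusted p = 0.000694). *Lyz2*, which encodes lysozyme of myeloid cells and may share signal with its near-identical copy *Lyz1*, did not pass the test: its change was 1.08 ± 0.26 (adjusted p = 0.172), and its control inferior arrays lay at 5.99 and 6.82, the widest gap between replicates of any of the 42 genes. Without control inferior replicate 2, its adjusted p was 0.0450.

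**Figure D2:**
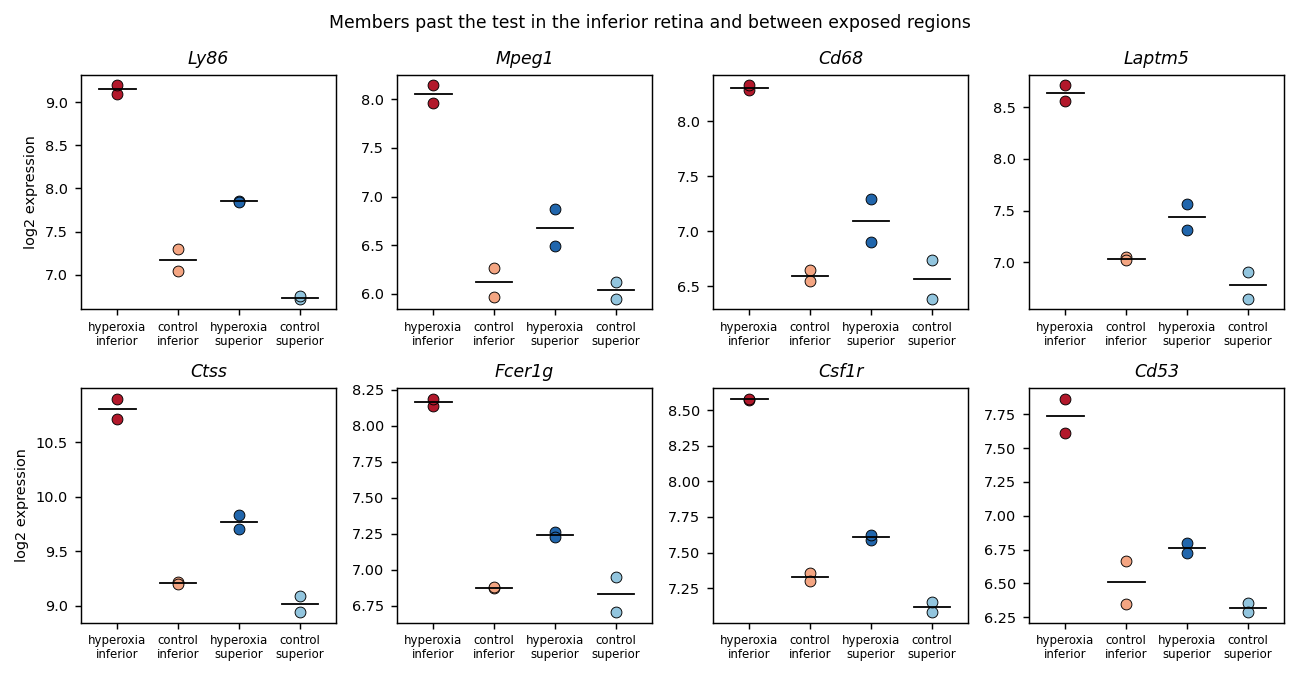
Log2 expression of the 8 genes that rose in the inferior retina and also stood higher in hyperoxia inferior than in hyperoxia superior retinas, with a point for each array and a line at the mean of the 2 arrays of a group; each panel has its own vertical scale, which does not start at 0. In each panel the hyperoxia inferior points lie highest, and the hyperoxia superior points lie above all 4 control points.

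Sequences upstream of genes that moved together are shown for 4 of these 8 genes. In macrophages many such genes carry sites for PU.1, the product of *Spi1*, whose core letters are GAGGAA. Promoter windows from 250 bases before to 50 bases after the annotated start (RefSeq, GRCm38.p6) were found for 32 of the 42 genes, in 39 windows that overlap in part. *Ctss* (chr3:95526536-95526835, plus strand), *Cd53* (chr3:106790100-106790399, minus strand) and *Cd68* (chr11:69666121-69666420, minus strand) are printed because they hold such letters, and *Ly86* (chr13:37345095-37345394, plus strand), with the largest change of the 42 genes, because it holds none of the motifs marked here. All 4 are written 5′ to 3′ on the strand of the gene. Capitals mark GAGGAA, its longer form GAGGAAGT, and a joint motif of ETS and IRF factors (GGAA, any 2 letters, then GAAA), on either strand.
Ctss: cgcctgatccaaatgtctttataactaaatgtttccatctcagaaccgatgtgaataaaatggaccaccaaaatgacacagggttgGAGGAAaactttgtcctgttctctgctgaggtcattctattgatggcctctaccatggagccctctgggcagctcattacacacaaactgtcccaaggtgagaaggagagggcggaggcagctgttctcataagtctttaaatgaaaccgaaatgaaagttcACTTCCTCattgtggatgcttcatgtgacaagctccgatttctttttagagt
Cd53: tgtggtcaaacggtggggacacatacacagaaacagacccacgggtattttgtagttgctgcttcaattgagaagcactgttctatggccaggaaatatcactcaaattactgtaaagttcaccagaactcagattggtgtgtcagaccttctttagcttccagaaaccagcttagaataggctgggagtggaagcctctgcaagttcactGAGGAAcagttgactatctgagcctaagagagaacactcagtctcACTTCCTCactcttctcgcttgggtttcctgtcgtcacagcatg
Cd68: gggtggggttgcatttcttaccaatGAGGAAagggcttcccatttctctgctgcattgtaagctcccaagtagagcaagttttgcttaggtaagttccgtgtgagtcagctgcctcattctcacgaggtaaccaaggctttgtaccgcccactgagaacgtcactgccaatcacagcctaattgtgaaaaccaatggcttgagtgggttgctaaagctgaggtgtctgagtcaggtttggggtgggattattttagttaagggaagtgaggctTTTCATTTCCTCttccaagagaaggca
Ly86: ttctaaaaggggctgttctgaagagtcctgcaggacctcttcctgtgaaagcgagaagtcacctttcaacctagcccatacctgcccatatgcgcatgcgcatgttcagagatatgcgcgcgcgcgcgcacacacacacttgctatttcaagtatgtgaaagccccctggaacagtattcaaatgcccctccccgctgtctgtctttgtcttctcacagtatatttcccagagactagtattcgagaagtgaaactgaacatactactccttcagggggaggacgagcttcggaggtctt

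In the *Ctss* window, GAGGAA lies 164 bases before the start on the gene's own strand, and GAGGAAGT lies across the start on the opposite strand. In *Cd53*, GAGGAA lies 39 bases before the start and GAGGAAGT begins 7 bases after it on the opposite strand. In *Cd68*, GAGGAA lies 225 bases before the start, and the joint ETS and IRF motif, which overlaps another GAGGAA, begins 24 bases after it on the opposite strand. Over all 39 windows, GAGGAAGT, which contains GAGGAA, was found in 5 (12.8%), beside 3.20% of the 32851 windows of all genes. GAGGAA was found in 19 (48.7%), beside 28.3% of all windows, and the joint ETS and IRF motif in 3 (7.69%), beside 2.72%. A longer PU.1 form (AAAG, any letter, then GGAAGT) was found in 3 (7.69%), in *Cd33* and *Cd180*, beside 0.271% of all windows. TGTGGT, the letters bound by RUNX factors, was found in 9 (23.1%), beside 16.8%, and TTGCNNAA, a form bound by C/EBP factors, in 5 (12.8%), beside 10.8%. These matches are descriptions of letters on both strands; binding was not measured.

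Among the 8 receptors for microbial products and debris, 2 rose in the inferior retina and these were partners. *Ly86* encodes MD-1, a secreted protein that holds CD180 at the cell surface, and *Cd180* encodes that receptor, a relative of the Toll-like receptors that lacks their signalling domain. *Ly86* measured 9.10 and 9.20 in hyperoxia inferior retinas, 7.30 and 7.04 in control inferior retinas, 7.86 and 7.84 in hyperoxia superior retinas and 6.72 and 6.75 in control superior retinas. No array of 1 group overlapped any of another. It had the largest change of the 42 genes, 3.95-fold in the inferior retina (1.98 ± 0.10; adjusted p = 0.000291). *Cd180* measured 6.38 and 6.30 in hyperoxia inferior retinas, 5.12 and 5.43 in control inferior retinas, 5.37 and 5.74 in hyperoxia superior retinas and 5.56 and 5.34 in control superior retinas. Its hyperoxia inferior arrays stood above the other 6, among which the groups overlapped, and it rose 2.10-fold in the inferior retina (1.07 ± 0.15; adjusted p = 0.0261). *Cd180* was among the dim probe sets, and its adjusted p lay between 0.0561 and 0.162 without either hyperoxia inferior array, control inferior replicate 1 or either control superior array.

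The other 6 receptors for microbial products and debris did not pass the test, with changes between 0.02 and 0.30 in the inferior retina. *Tlr4*, the receptor for bacterial lipopolysaccharide, measured 4.78 and 4.45 in hyperoxia inferior retinas, 4.46 and 4.57 in control inferior retinas, 4.50 and 4.80 in hyperoxia superior retinas and 4.23 and 4.56 in control superior retinas. *Mrc1*, the mannose receptor of tissue macrophages, measured 4.89 and 5.14 in hyperoxia inferior retinas, 4.97 and 5.00 in control inferior retinas, 5.33 and 4.86 in hyperoxia superior retinas and 5.13 and 5.27 in control superior retinas. *Msr1*, a scavenger receptor for modified lipoproteins, measured 3.29 and 3.54 in hyperoxia inferior retinas, 3.30 and 3.49 in control inferior retinas, 3.50 and 3.45 in hyperoxia superior retinas and 3.45 and 3.29 in control superior retinas. For all 3 the exposed and control arrays of the inferior retina overlapped, with changes of 0.11 ± 0.16, 0.03 ± 0.16 and 0.02 ± 0.12, and all 3 were dim. The changes were 0.30 for *Tlr7*, an endosomal receptor for single-stranded RNA, 0.19 for *Tlr2*, a receptor for bacterial lipoproteins, and 0.16 for *Cd14*, the co-receptor that hands lipopolysaccharide to *Tlr4*.

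Of the 5 Fc receptors and *Cd33*, 3 rose in the inferior retina. *Fcer1g* encodes the common gamma chain, through which activating Fc receptors signal. It measured 8.14 and 8.19 in hyperoxia inferior retinas, 6.87 and 6.88 in control inferior retinas, 7.26 and 7.23 in hyperoxia superior retinas and 6.71 and 6.95 in control superior retinas. The exposed arrays lay above the control arrays in both regions, and the inferior change was 2.44-fold (1.29 ± 0.10; adjusted p = 0.00114). *Fcgr3*, an activating receptor for IgG that pairs with this chain, measured 6.56 and 6.66 in hyperoxia inferior retinas, 5.65 and 5.89 in control inferior retinas, 6.10 and 5.80 in hyperoxia superior retinas and 5.92 and 5.95 in control superior retinas. Only its hyperoxia inferior arrays stood apart, and it rose 1.79-fold in the inferior retina (0.84 ± 0.13; adjusted p = 0.0323). The call was lost without either hyperoxia inferior, either control inferior or either control superior array, at adjusted p-values of 0.0509 to 0.234, and under the replicate block, at 0.0572.

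*Cd33*, a receptor that binds sialic acid, rose by 0.70 ± 0.09 (adjusted p = 0.0197), a call that was lost without either hyperoxia inferior or either control inferior array. Its control inferior level lay below its control superior level (difference -0.32). Between exposed regions its difference was 0.34 (limma adjusted p = 0.385). *Fcgr1*, the high-affinity IgG receptor, changed by 0.55 (adjusted p = 0.0572) and *Fcgr2b*, the inhibitory IgG receptor, by 0.37 (adjusted p = 0.385); neither passed the test. *Fcgr2b* and *Fcgr3* are close in sequence, so short probes may share signal between them and the split between the pair is uncertain.

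Of the 4 genes for a growth factor receptor and adhesion, 3 rose in the inferior retina. *Csf1r* is the receptor for CSF1 and IL34 on which microglia depend for survival. It measured 8.57 and 8.58 in hyperoxia inferior retinas, 7.36 and 7.30 in control inferior retinas, 7.59 and 7.63 in hyperoxia superior retinas and 7.08 and 7.15 in control superior retinas. The 4 groups did not overlap, and *Csf1r* rose 2.37-fold in the inferior retina (1.25 ± 0.08; adjusted p = 0.000759). It was the only one of the 42 genes that kept its inferior call under all 18 alternatives of processing and sample choice. *Itgam*, the alpha chain of complement receptor integrin CD11b/CD18, measured 7.06 and 6.69 in hyperoxia inferior retinas, 6.10 and 5.78 in control inferior retinas, 6.28 and 6.31 in hyperoxia superior retinas and 6.00 and 5.95 in control superior retinas. Its hyperoxia inferior arrays lay highest but 0.37 apart. It rose by 0.94 ± 0.14 (adjusted p = 0.0366). The call was lost with quantile normalization (limma adjusted p = 0.0786). When arrays were left out in turn, it held only in the absence of control inferior replicate 1.

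*Itgb2*, the beta chain of the same integrin, rose by 0.90 ± 0.12 (adjusted p = 0.0183); the call was lost without either hyperoxia inferior array, control inferior replicate 1 or either control superior array (adjusted p of 0.0543 to 0.156). *Adgre1*, which encodes the macrophage marker F4/80, changed by 0.64 ± 0.11 and did not pass the test (adjusted p = 0.0556). Its exposed arrays lay above its control arrays in both regions.

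All 5 surface proteins of costimulation and small membrane proteins had higher values on the hyperoxia inferior than on the control inferior arrays, and 2 rose. *Cd53*, a tetraspanin of leukocytes, measured 7.87 and 7.61 in hyperoxia inferior retinas, 6.35 and 6.67 in control inferior retinas, 6.80 and 6.72 in hyperoxia superior retinas and 6.35 and 6.29 in control superior retinas. Exposed arrays stood above control arrays throughout, and *Cd53* rose 2.35-fold in the inferior retina (1.23 ± 0.13; adjusted p = 0.00532; adjusted p = 0.0521 without hyperoxia inferior replicate 1). *Cd52*, a short lipid-anchored glycoprotein of leukocytes, measured 6.59 and 6.55 in hyperoxia inferior retinas, 5.84 and 5.67 in control inferior retinas, 6.17 and 5.88 in hyperoxia superior retinas and 5.64 and 5.70 in control superior retinas. The hyperoxia inferior arrays were the highest pair, and *Cd52* rose by 0.82 ± 0.12 (adjusted p = 0.0256), a call lost without either hyperoxia inferior array, control inferior replicate 2 or either control superior array (adjusted p of 0.0654 to 0.162). *Cd84* and *Cd48*, adhesion receptors of the SLAM family, changed by 0.52 and 0.45, and *Cd86*, a costimulatory ligand for T cells, by 0.48; none of these 3 passed the test.

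Of the 6 signalling proteins of blood cells, only *Inpp5d*, the lipid phosphatase SHIP1, rose in the inferior retina. It measured 6.60 and 6.60 in hyperoxia inferior retinas, 5.94 and 6.04 in control inferior retinas, 6.18 and 6.04 in hyperoxia superior retinas and 6.13 and 6.02 in control superior retinas. Only the hyperoxia inferior arrays stood apart, and *Inpp5d* rose by 0.61 ± 0.09 (adjusted p = 0.0379); without either hyperoxia inferior, either control inferior or either control superior array the adjusted p was 0.0818 to 0.234, and with the replicate block it was 0.0626. *Vav1*, an activator of Rac GTPases, measured 5.10 and 5.35 in hyperoxia inferior retinas, 4.61 and 4.70 in control inferior retinas, 5.03 and 5.00 in hyperoxia superior retinas and 4.69 and 4.75 in control superior retinas. Exposed arrays lay above control arrays in both regions, but neither change passed the test (0.57 ± 0.10 with adjusted p = 0.0700 in the inferior retina). Changes in the inferior retina were 0.57 for *Ptprc*, the leukocyte tyrosine phosphatase CD45, 0.46 for the adaptor *Lcp2* and 0.28 for *Ptpn6*, the phosphatase SHP1, none of which passed.

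*Hcls1*, an actin-binding substrate of tyrosine kinases in blood cells, had the lower of the 2 inferior changes below 0, the other being that of *Spi1*. It measured 8.14 and 8.12 in hyperoxia inferior retinas, 8.36 and 8.64 in control inferior retinas, 7.97 and 8.04 in hyperoxia superior retinas and 8.05 and 8.19 in control superior retinas. Its exposed arrays lay below its control arrays in both regions, and its change of -0.37 ± 0.11 in the inferior retina did not pass the test (adjusted p = 0.309). It was the 1 gene of the 42 that was lower at an unadjusted p under 0.05.

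Among 3 actin regulators, *Aif1*, which encodes IBA1, the protein most used to stain microglia, rose in the inferior retina. It measured 6.41 and 6.33 in hyperoxia inferior retinas, 5.74 and 5.63 in control inferior retinas, 5.94 and 5.97 in hyperoxia superior retinas and 5.57 and 5.59 in control superior retinas. The hyperoxia inferior arrays were highest, the hyperoxia superior arrays next, and *Aif1* rose 1.61-fold (0.68 ± 0.09; adjusted p = 0.0153), a call lost without either hyperoxia inferior array or control inferior replicate 2 (adjusted p of 0.0781 to 0.106). *Lcp1*, the actin-bundling protein L-plastin, measured 6.01 and 6.54 in hyperoxia inferior retinas, 5.65 and 5.82 in control inferior retinas, 6.05 and 5.91 in hyperoxia superior retinas and 5.61 and 5.82 in control superior retinas. The hyperoxia inferior arrays of *Lcp1* differed by 0.53, the widest gap of that group, and its change of 0.53 ± 0.17 did not pass (adjusted p = 0.329). *Coro1a*, the actin-binding protein coronin of leukocytes, changed by 0.30.

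Neither of the 2 membrane subunits of the phagocyte oxidase, which makes superoxide, passed the test in the inferior retina. *Cyba*, the smaller subunit, measured 7.52 and 7.90 in hyperoxia inferior retinas, 7.06 and 7.38 in control inferior retinas, 7.39 and 7.52 in hyperoxia superior retinas and 7.16 and 7.33 in control superior retinas. *Cybb*, the catalytic subunit, measured 5.91 and 6.16 in hyperoxia inferior retinas, 6.21 and 5.59 in control inferior retinas, 5.99 and 5.96 in hyperoxia superior retinas and 5.61 and 5.93 in control superior retinas. The inferior groups did not overlap for *Cyba* (change 0.49 ± 0.15) and did for *Cybb* (0.13 ± 0.20). *Hpgds*, the prostaglandin D synthase of blood cells, measured 5.71 and 5.91 in hyperoxia inferior retinas, 5.31 and 5.14 in control inferior retinas, 5.59 and 5.43 in hyperoxia superior retinas and 5.49 and 5.45 in control superior retinas. It was highest on the hyperoxia inferior arrays, and its control inferior arrays lay below its control superior arrays (difference -0.24). Its change of 0.59 ± 0.11 in the inferior retina did not pass (adjusted p = 0.0723).

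None of the 3 transcription factors passed the test. *Spi1*, which encodes PU.1, the factor required for the macrophage lineage, measured 4.94 and 4.75 in hyperoxia inferior retinas, 4.99 and 4.78 in control inferior retinas, 4.94 and 4.72 in hyperoxia superior retinas and 4.64 and 4.84 in control superior retinas. The groups overlapped, and the inferior change was -0.04 ± 0.13 for this dim probe set. *Irf8*, a partner of PU.1, measured 6.45 and 6.74 in hyperoxia inferior retinas, 6.10 and 6.15 in control inferior retinas, 6.43 and 6.29 in hyperoxia superior retinas and 6.04 and 6.27 in control superior retinas. *Runx1*, a factor of blood stem cells and embryonic microglia, measured 5.71 and 5.91 in hyperoxia inferior retinas, 5.56 and 5.61 in control inferior retinas, 5.55 and 5.67 in hyperoxia superior retinas and 5.80 and 5.60 in control superior retinas. Exposed arrays of the inferior retina lay above control arrays for both, with changes of 0.47 ± 0.12 (adjusted p = 0.216) and 0.22 ± 0.11 (adjusted p = 0.593).

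In the superior retina, 1 of the 42 genes rose after hyperoxia and 0 fell, 2.38% of them beside 0.0139% of all probe sets called higher. The gene was *Ly86*, which rose 2.16-fold (1.11 ± 0.10; adjusted p = 0.0296). This call was lost without either hyperoxia inferior, either hyperoxia superior or either control superior array, at adjusted p-values between 0.118 and 0.591, and with the replicate block, at 0.105. The other 41 genes did not pass. The median change of the 42 genes was 0.20 (range -0.11 to 1.11), beside 0.00 over all probe sets, and 38 changes were above 0, beside 50.6% of all probe sets. At an unadjusted p under 0.05, 15 genes were higher, beside 3.43% of all probe sets, and 0 were lower. Exposed and control arrays of the superior retina did not overlap, with exposed higher, for 25 genes, beside 18.7% of all probe sets. After *Ly86*, the largest superior changes were 0.75 for *Ctss* (adjusted p = 0.163), 0.67 for *Lyz2*, 0.66 for *Laptm5*, 0.65 for *Mpeg1* and 0.53 for *Cd68*, so that all 5 genes of the lysosome and of microbe killing were higher at an unadjusted p under 0.05.

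**Figure D3:**
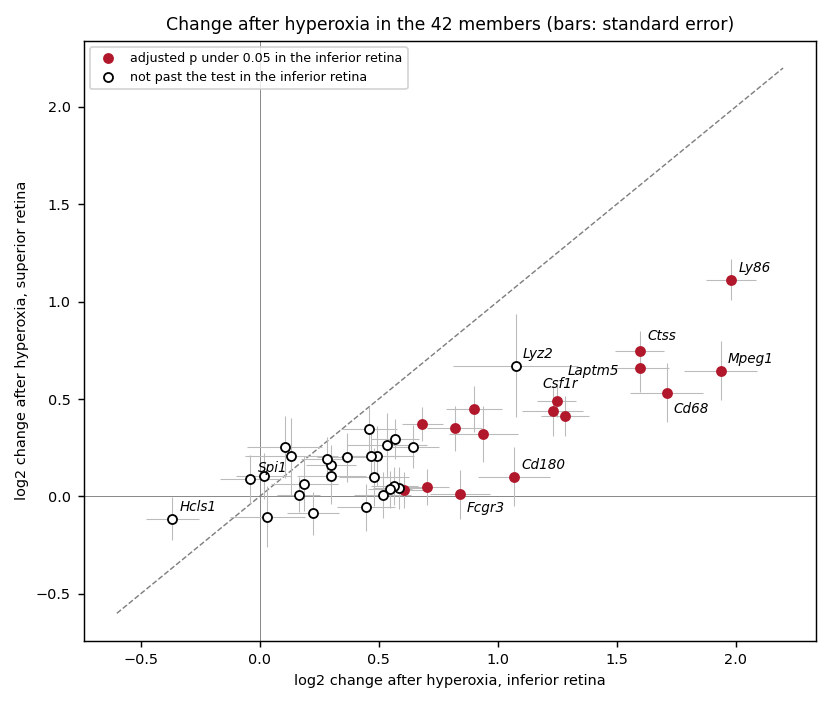
Inferior (horizontal axis) against superior (vertical axis) log2 change after hyperoxia for the 42 genes, with bars of 1 standard error; filled points are genes past the inferior test, and a dashed line marks equal changes. All 16 filled points lie below the line and above 0 on the vertical axis.

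Of the 42 genes, 37 had a lower change in the superior than in the inferior retina. All 16 genes that rose in the inferior retina were among them, and each had a superior change above 0; these 16 were picked by their inferior change, which favours a smaller superior one, so their order is a description only. The change was above 2-fold for 10 genes in the inferior retina and for 1 in the superior retina. The share of all probe sets past this cutoff was not computed, so these 2-fold counts describe the 42 genes only. Exposed arrays lay above control arrays in both regions for 23 genes, beside 4.98% of all probe sets, and in the inferior retina alone for 12, beside 15.5%. The 12 include *Cd180*, *Fcgr3*, *Cd33*, *Inpp5d*, *Hpgds* and *Ptprc*. The difference between the inferior and the superior change was tested directly. It passed for 0 of the 42 genes with limma (lowest adjusted p = 0.307), beside 0.00347% of all probe sets called higher. With the unmoderated interaction test of the study's methods, 0 genes passed after Benjamini-Hochberg adjustment, an adjustment those methods did not use, beside 0.00% of all probe sets. Unadjusted, that test was under 0.05 with a difference above 0 for 17 genes, beside 2.73% of all probe sets, and with one below 0 for 0, beside 2.62%. At an unadjusted limma p under 0.05 the difference was above 0 for 22 genes, beside 3.02% of all probe sets, and below 0 for 0 genes, beside 3.03%. The study drew its own list from these same arrays by an unadjusted p under 0.05 of its 2-way test and by a margin of fold ratios. The 11 genes of that list are therefore not independent evidence in either unadjusted count. All 11 were among the 22, beside 11 of the other 31 genes. The median difference was 0.40, and 37 of the 42 were above 0, beside 50.8% of all probe sets. The largest differences were 1.29 ± 0.22 for *Mpeg1* and 1.18 ± 0.22 for *Cd68*.

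Among hyperoxia-exposed retinas, 8 of the 42 genes (19.0%) had higher inferior than superior levels and 0 had lower ones, beside 0.125% of all probe sets called higher. This comparison shares its hyperoxia inferior arrays with that of the inferior retina, and all 8 genes were in the study's own list. The differences were 1.37 for *Mpeg1* (adjusted p = 0.0204), 1.30 for *Ly86* (0.00697), 1.21 for *Cd68* (0.0335), 1.20 for *Laptm5* (0.0152), 1.04 for *Ctss* (0.0126), 0.98 for *Cd53* (0.0376), 0.97 for *Csf1r* (0.00944) and 0.92 for *Fcer1g* (0.0204). The median over the 42 genes was 0.33, 39 differences were above 0 beside 50.9% of all probe sets, and 25 genes were higher at an unadjusted p under 0.05 beside 4.25%. The inferior arrays lay above the superior arrays for 35 genes, beside 20.0% of all probe sets. These calls turned on single arrays: 0 genes passed when either hyperoxia inferior array, or replicate 2 of the hyperoxia superior retinas, was left out, and 5 passed without hyperoxia superior replicate 1 or either control superior array.

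In control retinas, 0 of the 42 genes were higher and 0 lower in the inferior than in the superior retina, beside 0.00% of all probe sets called either way by limma and 0 of the 42 by the unmoderated test with Benjamini-Hochberg adjustment. Unadjusted, the unmoderated test was under 0.05 for 3 genes higher, beside 2.37% of all probe sets, and for 2 lower, beside 2.16%. The median difference was 0.08 (range -0.35 to 0.43), or 0.018 without control superior replicate 1, with 26 differences above 0, beside 50.7% of all probe sets. The inferior arrays lay above the superior arrays for 11 genes, beside 17.5% of all probe sets. They lay below them for 6, beside 16.7% (*Fcgr3*, *Cd33*, *Hpgds*, *Fcgr1*, *Cd48* and *Mrc1*). At an unadjusted p under 0.05, 3 genes were higher in the inferior retina (*Ly86* by 0.43, *Hcls1* by 0.38 and *Csf1r* by 0.21), beside 2.49% of all probe sets, and 2 were lower (*Fcgr1* by -0.35 and *Cd33* by -0.32), beside 2.81%. These 5 genes were named after their values were seen.

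Read array by array, both hyperoxia inferior arrays lay above the other 6 for 32 of the 42 genes, beside 6.95% of all probe sets. With both hyperoxia superior arrays also above all 4 control arrays, the count was 17 of the 42 genes, beside 1.26% of all probe sets. As a set, the 42 genes lay a median of 0.38 and 0.41 above their means on the hyperoxia inferior arrays, against -0.20 and -0.17 on the control inferior arrays. The medians were 0.03 and -0.02 on the hyperoxia superior arrays, against -0.26 and -0.16 on the control superior arrays. Replicates of a group differed by a median of 0.18 over the 42 genes in hyperoxia inferior, 0.15 in control inferior, 0.14 in hyperoxia superior and 0.15 in control superior retinas. Over all probe sets the gaps were smaller, at 0.12, 0.12, 0.11 and 0.11 in the same order.

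Lists of other genes of the same pathways had smaller median changes in the inferior retina than the pan-phagocyte and myeloid genes. The lists share no gene with that set, and so lack *Csf1r*, *Fcer1g*, *Itgam* and *Itgb2*. Set and lists were also chosen with earlier results of these data known. The smaller medians therefore do not show that the pathways moved less. In the inferior retina 1 of 12 ligands and signalling partners of the CSF1 receptor rose (median 0.16) and 1 of 17 genes of Fc receptor signalling (median 0.16). The gene was in both cases *Tyrobp*, the adaptor that signals for several myeloid receptors. It is also in the study's own list of genes regulated differently by region, drawn from these same arrays. It measured 7.44 and 7.45 in hyperoxia inferior retinas, 6.25 and 6.30 in control inferior retinas, 6.56 and 6.43 in hyperoxia superior retinas and 6.22 and 6.08 in control superior retinas, and it rose by 1.17 ± 0.09 (adjusted p = 0.00114). Of 20 genes of the Toll-like receptor pathway, 1 rose, *Unc93b1*, the chaperone of endosomal Toll-like receptors, by 0.74 (adjusted p = 0.0272), with a median of 0.23. None of 8 partners of the phagocyte oxidase (median 0.27), 13 scavenger receptors (median 0.10) or 11 integrins and their ligands (median 0.00) passed. No gene of these 6 lists fell in the inferior retina, and none passed in the superior retina.

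Markers of cell types that could carry these genes were compared in the same way, again in lists without any of the pan-phagocyte and myeloid genes. Of 15 markers of homeostatic microglia, 14 changes were above 0 in the inferior retina, beside 51.6% of all probe sets, with a median of 0.29. The test was passed by 3, beside 0.430% of all probe sets called higher. *Fcrls*, an Fc receptor-like protein, rose by 1.35 (adjusted p = 0.00557), *Tyrobp* by 1.17, and *P2ry13*, a receptor for ADP, by 0.67 (adjusted p = 0.0498). *Fcrls* and *Tyrobp* are in the study's own list from these same arrays, so they are not independent evidence. *Tyrobp* is also the gene already counted in the pathway lists. In the superior retina the median of the 15 markers was 0.16 and 0 passed. None of 10 monocyte markers passed in the inferior retina (median 0.00), nor any of 9 of perivascular macrophages (median -0.03), 12 of dendritic cells and MHC class II (median 0.01), 13 of neutrophils (median 0.01), 15 of T and NK cells (median 0.03), 7 of B cells (median 0.12) or 7 of mast cells and megakaryocytes (median -0.09). The mean log2 level of each of these lists lay under 6, the limit for dim genes, on all 8 arrays (monocytes 5.41 to 5.61). That of the homeostatic microglia list was 6.57 to 7.19. A flat median of a dim list does not show that its cells were absent or unchanged. Of the 10 monocyte markers, 5 changes were above 0 and 5 below in the inferior retina (range -0.40 to 0.38), and 1 was higher at an unadjusted p under 0.05, beside 4.96% of all probe sets. *Ccr2*, a receptor of inflammatory monocytes named after its values were seen, lay between 3.05 and 3.30 on all 8 arrays, with an inferior change of -0.16.

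Marker lists of other cells of the sample also differed between groups, and their part in the results was not tested. No gene of the rod, lens or retinal pigment epithelium lists passed the adjusted test in any comparison. Some of their medians turned on single arrays, as given below. Over 12 rod genes the inferior change had a median of -0.17, with 11 of 12 below 0 and 0 past the test. Their median level was -0.01 and -0.26 on the hyperoxia inferior arrays, against -0.0047 and 0.02 on the control inferior arrays, and without hyperoxia inferior replicate 2 the median change was -0.03 with 7 of 12 below 0. Over 15 lens genes the inferior change had a median of -1.53, with 15 of 15 below 0; without control inferior replicate 2 it was 0.52, with 0 below 0, while the number of the 42 genes called was 11. Over 14 genes of the retinal pigment epithelium, a layer that can stay attached when a retina is dissected, the superior change had a median of 0.89, and 10 were higher at an unadjusted p under 0.05, beside 3.43% of all probe sets. Their median level was 0.31 and 0.36 on the hyperoxia superior arrays, against -0.77 and -0.18 on the control superior arrays, so that it moved with the comparison in which the 42 genes had a median of 0.20. Without control superior replicate 1 the medians of the superior change were 0.41 for the pigment epithelium genes and 0.17 for the 42 genes. In the inferior retina the same list had a median change of -0.03. Some of its genes are in the study's own list, drawn from these same arrays. Between control regions, where the 42 genes had a median of 0.08, the inferior level was higher by a median of 0.59 for the pigment epithelium genes (14 of 14 above 0) and of 1.34 for the lens genes (15 of 15 above 0). With replicate 1 of the control superior retinas left out, the pigment epithelium median was 0.07. With replicate 2 of the control inferior retinas left out, it was 0.19 and the lens median -0.52, and with replicate 1 of that group left out the lens median was 3.59. Markers of vascular endothelium (10 genes, median -0.05), pericytes and smooth muscle (8 genes, -0.05) and erythrocytes (3 genes, -0.10) had no gene past the test in the inferior retina. Of 12 genes of Müller cells and astrocytes, 1 rose, *Gfap*, by 2.42, and 1 fell, *Glul*, by 0.70 on the log2 scale. *Gfap* is in the study's own list as well.

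**Figure D4:**
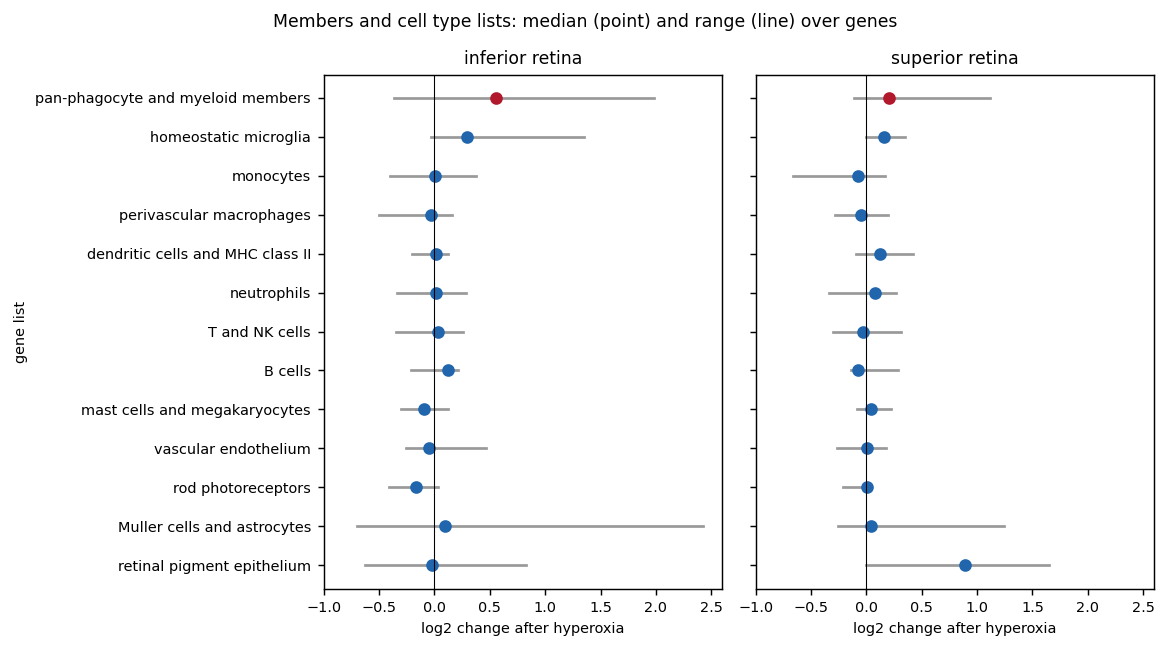
Log2 change after hyperoxia in the inferior (left) and superior (right) retina for the 42 genes and for 12 lists of cell type markers; points are medians and lines run from the lowest to the highest gene of a list. The 42 genes have the highest median in the inferior retina at 0.56, followed by homeostatic microglia at 0.29; in the superior retina the retinal pigment epithelium lies highest at 0.89. The lens, erythrocyte, and pericyte and smooth muscle lists are not drawn.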

How the data were processed

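RNA of 8 retinal samples was hybridised to 8 arrays. The authors corrected background by RMA and summarised probes by median polish in Partek, and deposited log2 values for 28853 probe sets. Neither the software version nor the genome build of the probe annotation is given in the sources used here. The deposited log2 values were used without further normalization. Because the values were background corrected and summarised before deposit, small changes of dim probe sets can be compressed. The platform annotation gives 1 symbol for 21789 probe sets, several for 1621 and none listed for 5443, and only the first kind named genes; 21698 matched the GRCm38.p6 gene table by Entrez ID, which changed 0 symbols. Where a gene has several probe sets, the rule takes the one with the highest mean.

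A mean for each of 4 groups was fitted over all 8 arrays with limma 3.58.1 in R 4.3.3 (4 residual and 4.47 prior degrees of freedom), with Benjamini-Hochberg adjustment across the 28853 probe sets and a threshold of 0.05. The spread behind each p-value is that of these pooled samples alone, and precision is limited by the 2 arrays of a group. Members and lists were chosen with earlier results of these data known, so no p-value was adjusted over a list. Values on every array were given for the 2 members of each role group with the largest absolute inferior change (1 where a group has 1), for every member past another comparison's test, for the 5 members with the lowest inferior change, and for *Tyrobp*; the text names at most 3 genes with the smallest inferior p of a list, and *Ccr2*, named after its values were seen.

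The test was checked on simulated data with known changes in the inferior comparison. It found 31.3% of log2 changes of 0.5, 70.1% of changes of 1 and 98.5% of changes of 2. A gene that did not pass is therefore not shown to be unchanged. Alternatives were quantile normalization, median centring, probe sets with a mean under 6 left out, 1-symbol probe sets, averaging probe sets per gene, only the arrays of a comparison, a variance trend, a robust prior, the methods' t-test (the unmoderated contrast of the 2-way model over 8 arrays), the replicate number as a block, and leaving out each array. The unadjusted unmoderated test and the omission of arrays from the rod, lens and pigment epithelium lists were added after seeing the data.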

Additional observations from a re-analysis of the deposited data

How the results depend on the processing

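No median changed sign and no call changed direction under any of the 18 alternatives; the cause of the moves below was not tested unless the alternative's construction gives it. The 16 genes called in the inferior retina became 7 with only the arrays of the comparison and 1 (*Csf1r*) with the methods' t-test, and 7 to 15 when arrays were left out in turn. With 1-symbol probe sets, which are fewer to adjust over, 21 were called. The 1 gene called in the superior retina became 2 with dim probe sets left out or a variance trend (*Ctss* joined *Ly86*), 0 with the methods' t-test or the replicate block, and 0 to 1 without single arrays. The 8 genes called between exposed regions became 0 with the methods' t-test and 0 to 8 without single arrays. The count stayed at 0 for control regions and for the difference of changes. With dim probe sets left out, 22 members remain and medians rose to 0.83 (inferior), 0.33 (superior), 0.56 (between exposed regions) and 0.60 (difference of changes). The inferior median was 0.52 with quantile normalization and 0.53 with median centring. Without single arrays the medians ranged over 0.52 to 0.62 (inferior), 0.17 to 0.25 (superior), 0.32 to 0.41 (between exposed regions), 0.018 to 0.096 (control regions, lowest without control superior replicate 1) and 0.35 to 0.46 (difference of changes). Averaging probe sets per gene leaves the members as they are, since each has 1. Same-numbered samples are not shown to share animals, and their deviations correlated at -0.02 to 0.14 over probe sets and at -0.01 to 0.38 over the 42 genes; with the replicate block, 15, 0 and 7 genes were called in the inferior, in the superior and between exposed regions. The methods' t-test shares no spread among genes and has 4 degrees of freedom, so a lost call there does not show a smaller change.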

Other observations

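Of the 22 brighter genes of the 42, those with a mean of 6 or more, 13 rose in the inferior retina with a median change of 0.83, and of the 20 dim genes 3 rose with a median of 0.46. Over all probe sets, 0.430% were called higher in that comparison. Signal over background was not used here, so no bound was set for dim genes such as *Msr1*, *Tlr4* and *Spi1*.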
